A study of Mus musculus with 6 samples.

Results

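The 6 genes described here encode BRCA2, its partner PALB2, the meiotic BRCA2 localizers HSF2BP and BRME1, and the heterodimer partners MEIOB and SPATA22. They were taken by symbol, and all 6 were found among the 55487 genes of the count table (4930432K21Rik is the annotation's symbol for Brme1). The libraries were made from polyadenylated RNA of whole mouse testes at postnatal day 19, from 3 animals labelled control and 3 labelled dsfb. Per the title of the series, dsfb mice carry alleles of Hormad1 and Hormad2, genes of the meiotic chromosome axis, that are written SFB/SFB. The labels say nothing more of these alleles, of the strain or of the control genotype.

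In meiotic recombination, programmed breaks are resected to single-stranded DNA that is first coated by RPA. BRCA2 then loads strand exchange proteins, among them the meiotic recombinase DMC1, onto it. PALB2 links BRCA2 to BRCA1 at breaks, while HSF2BP (also named MEILB2) and BRME1 form a meiotic complex that brings BRCA2 to recombination sites. MEIOB, a relative of RPA, and SPATA22 bind each other and associate with RPA on the exposed strands, and loss of HSF2BP, BRME1, MEIOB or SPATA22 is known to block male meiosis.

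The genes lie on 5 chromosomes (mm10, GRCm38, GENCODE M21): Brca2 on chromosome 5 (150522630 to 150570329, plus strand), Palb2 on chromosome 7 (122107262 to 122132985, minus strand) and 4930432K21Rik on chromosome 8 (84148025 to 84172590, plus strand). Spata22 lies on chromosome 11 (73329741 to 73346044, plus strand). Chromosome 17 carries Meiob (24804289 to 24839788, plus strand) and Hsf2bp (31944769 to 32036349, minus strand). Of the 1274 exonic bases of Spata22, 1025 also belong to Gm49340, an annotated gene on the same strand with 0 counts in all 6 libraries. How reads on those shared exons were treated was not stated, and the Spata22 counts may come from as few as 249 bases. Exons of Palb2 share 414 bases with a pseudogene on the opposite strand, those of Hsf2bp 54 with Rrp1b and those of Brca2 41 with an antisense gene. Neither 4930432K21Rik nor Meiob shares an exonic base with another gene.

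A feature that the choice of genes did not use is the neighbour at each start. By GENCODE starts, 4 of the 6 members start within 1000 bases of a protein-coding gene transcribed the other way. The same held for 14.3% of the 15596 protein-coding genes tested. The starts are 56 bases apart for Palb2 and Dctn5, 89 for 4930432K21Rik and Cc2d1a, 145 for Spata22 and Aspa, and 249 for Hsf2bp and Rrp1b, whose first exons overlap. The stretches between the start of a member and its neighbour are printed here, free of annotated exons and read on the strand of the member, because expression on their 2 sides is compared further on. For Brca2, which has no such neighbour, the last 200 bases before its RefSeq start are given. All are RefSeq promoter sequences of GRCm38.p6, in which 5 of the 6 members matched by symbol, Meiob being the one without an entry. Capitals mark matches to the palindromic NRF1 motif, to TGACGTCA (the cAMP response element) and to CCAAT (or ATTGG on the other strand).
4930432K21Rik, chr8:84147937-84148024, plus strand: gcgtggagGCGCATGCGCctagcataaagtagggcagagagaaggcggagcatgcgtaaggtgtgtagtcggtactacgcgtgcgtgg
Spata22, chr11:73329597-73329740, plus strand: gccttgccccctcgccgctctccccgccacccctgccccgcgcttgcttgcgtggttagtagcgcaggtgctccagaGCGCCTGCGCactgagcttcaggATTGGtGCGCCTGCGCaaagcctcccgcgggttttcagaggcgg
Palb2, chr7:122132986-122133040, minus strand: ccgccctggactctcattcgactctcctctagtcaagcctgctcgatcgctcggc
Brca2, chr5:150522421-150522620, plus strand: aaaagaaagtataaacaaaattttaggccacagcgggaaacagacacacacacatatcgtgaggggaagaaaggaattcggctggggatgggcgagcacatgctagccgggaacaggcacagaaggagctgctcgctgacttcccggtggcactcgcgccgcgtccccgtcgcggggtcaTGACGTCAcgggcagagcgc
In the 250 bases before the RefSeq start, on either strand, the NRF1 motif was present for 4930432K21Rik, Spata22, Palb2 and Hsf2bp, and in 3.74% of 32851 mouse promoters. Their windows held 161, 158, 147 and 126 G or C bases, in that order, and the share was not matched for base composition. For Palb2 the motif lay in exonic bases outside the printed stretch. The window of Hsf2bp, which is not printed, precedes a RefSeq start inside the GENCODE gene, away from the start next to Rrp1b. Its match also lay in exonic bases. Only the matches of 4930432K21Rik and Spata22 thus lay in the printed stretches between paired starts. The TGACGTCA element of Brca2 occurred in 1.55% of those promoters. Both motifs were added after the sequences had been read. Neither CACGTG (an E-box, in 6.02% of promoters) nor CNCCTCAG (the STRA8 motif, in 6.42%) was found for any of the 5 members. Of the MYB core motifs, AACTG (39.1% of promoters) was found for Hsf2bp and Palb2, and AACGG (14.5%) for Spata22, which also held the only CCAAT (33.8%).

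The libraries held from 15335130 counted reads (dsfb replicate 2) to 27707291 (control replicate 2), with every dsfb library below every control library. Hormad1 was at 209 to 486 CPM (counts scaled to a common library total with TMM factors) in control and 217 to 246 in dsfb, and Hormad2 at 42.9 to 60.03 and 25.1 to 28.7. Since the labels do not say whether the alleles should lower the transcripts, these levels do not check the genotype. Markers of Sertoli cells, all 10 of which rose, summed to 1514 to 1786 CPM in control and 3398 to 3530 in dsfb. Those of mid to late pachytene spermatocytes, all 10 of which fell, summed to 7948 to 10980 CPM in control and 291 to 322 in dsfb, while 6 of 8 spermatogonial markers rose and 1, the abundant Dmrtb1, fell, with sums of 625 to 844 CPM in control and 333 to 375 in dsfb. Of the Leydig, myoid and macrophage markers 3 each rose and none fell (of 6, 5 and 5), and none of 4 erythroid markers was called. The erythroid sums were 213, 208 and 11.6 CPM in control replicates 1 to 3 and 318, 295 and 35.6 CPM in dsfb replicates 1 to 3, so that replicate 3 of each group was low. No marker of these lists was at 0 in all dsfb libraries. Of 9 meiotic prophase markers 5 fell and 1 rose, with sums of 4404 to 5685 CPM in control and 2034 to 2268 in dsfb. Control replicate 3 stood apart, with spermatid markers at 733 CPM in sum against 155 and 177 in control replicates 1 and 2 and at most 11.8 in dsfb. The part of these shifts in the results below was not tested, and in whole testes fewer cells of a type and less RNA per cell cannot be told apart.

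Transcripts of 3 of the 6 genes were lower in dsfb testes (edgeR adjusted p under 0.05): those of both BRCA2 localizers, Hsf2bp and 4930432K21Rik, and of Spata22. No member rose, and Brca2, Palb2 and Meiob did not pass the test. All 6 had passed the filter on low counts. Among all 19826 genes tested 66.9% were called, 36.2% as lower and 30.7% as higher, so that a count of 3 falls among 6 is close to this background. The median log2 fold change was -0.88 over the 6 genes and 0.02 over all genes tested. The split of all calls moved with the scaling, from 6080 higher and 7176 lower to 8187 and 6126 with upper-quartile scaling, 8936 and 5732 with library size only and 10747 and 4420 with scaling on the meiotic prophase markers. With no filter on low counts it was 4869 and 8839.

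**Figure D1:**
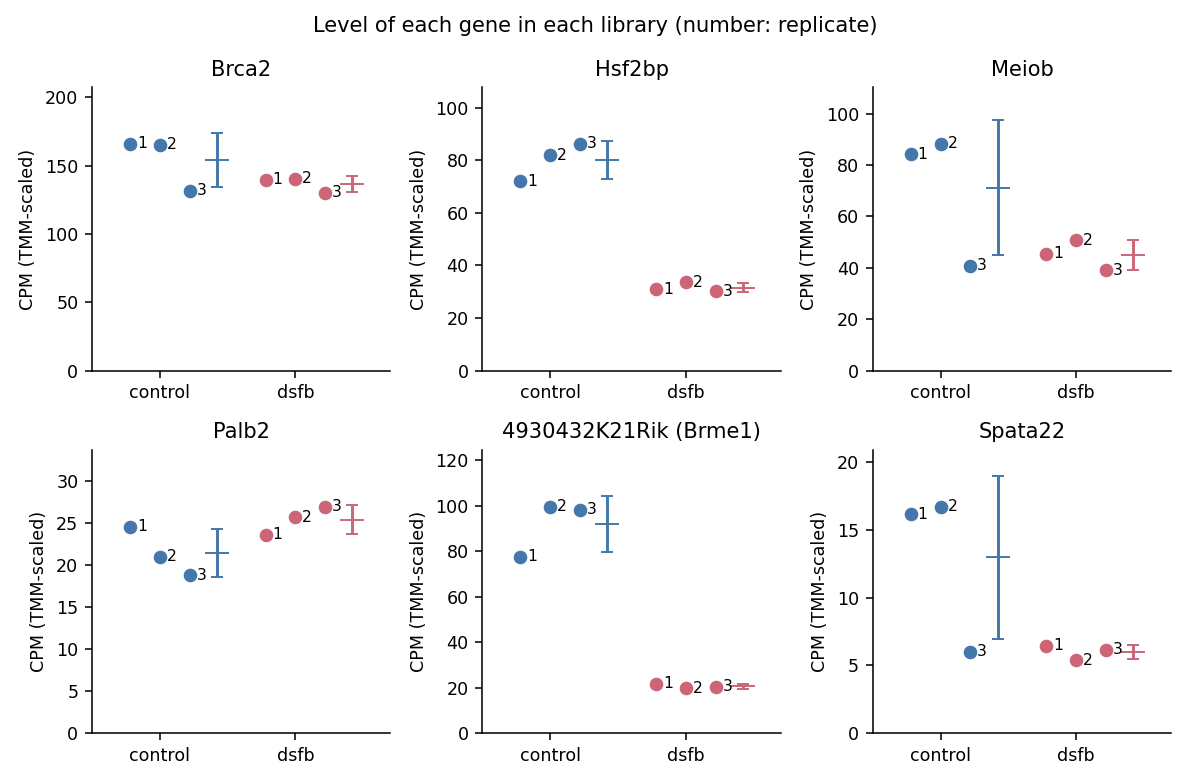
Level of each gene in CPM (vertical axis, from 0) in the 3 control and 3 dsfb libraries, with points numbered by replicate and the mean and SD beside each group. The groups are apart for Hsf2bp and 4930432K21Rik, and control replicate 3 lies at the dsfb level for Meiob (40.8 CPM) and Spata22 (6.03 CPM).

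The transcript of BRCA2 itself, the large mediator protein, differed little. Control replicates 1 to 3 had Brca2 at 166, 165 and 132 CPM, while dsfb replicates 1 to 3 had 139.8, 140.2 and 130.0 CPM. Control replicates 1 and 2 were the highest, but control replicate 3 lay among the dsfb libraries, so the groups overlapped. The log2 fold change was -0.17 (SE 0.11, edgeR adjusted p = 0.189). Without control replicate 3 it was -0.30 (SE 0.08, edgeR adjusted p = 0.00159), a 1.24-fold fall.

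Palb2 was at 24.6, 21.02 and 18.8 CPM in control replicates 1 to 3 and at 23.6, 25.7 and 27.0 CPM in dsfb replicates 1 to 3. These ranges overlapped, and the log2 difference was 0.24 (SE 0.14, edgeR adjusted p = 0.166). The direction of Brca2 turned with the scaling of the libraries, being 0.10 with upper-quartile scaling, 0.22 with library size only and 0.59 when libraries were scaled on the meiotic prophase markers. With them the median over all genes lay higher by 0.28, 0.40 and 0.75, and under each Palb2 passed the test as higher (0.52, 0.64 and 1.01). Brca2 passed as higher with prophase-marker scaling (edgeR adjusted p = 0.00104) and not with the others.

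The localizers showed the clearest difference. Hsf2bp was at 71.95, 81.9 and 86.2 CPM in control replicates 1 to 3 and at 30.9, 33.6 and 30.2 CPM in dsfb replicates 1 to 3. Every dsfb library lay under every control library, and the fall was 2.53-fold (log2 -1.34, SE 0.10, edgeR adjusted p = 2.58e-05). Of all tested genes 23.5% had a lower log2 fold change.

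4930432K21Rik, which encodes BRME1, was at 77.6, 99.6 and 98.2 CPM in control replicates 1 to 3. In dsfb replicates 1 to 3 it was at 21.8, 19.7 and 20.5 CPM, again without overlap, a 4.44-fold fall (log2 -2.15, SE 0.13, edgeR adjusted p = 5.79e-06). A lower log2 fold change was found for 17.5% of tested genes. Groups that did not overlap, with dsfb lower, were found for 38.5% of all tested genes, and in either direction for 74.7%. Both localizers were called as lower under each of the 17 other settings tried, those that leave out a library included.

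For the MEIOB-SPATA22 pair the result depended on control replicate 3 and on the model and scaling. Meiob was at 84.2, 88.2 and 40.8 CPM in control replicates 1 to 3 and at 45.5, 50.7 and 39.0 CPM in dsfb replicates 1 to 3. Control replicates 1 and 2 were alike and high, and control replicate 3 lay within the range of the dsfb libraries. With all libraries the log2 fold change was -0.66 (SE 0.27, edgeR adjusted p = 0.065). Meiob passed as lower with all libraries in DESeq2 (adjusted p = 0.00883), and in edgeR with RLE factors (adjusted p = 0.0411), no filter (0.0313) or a replicate block (0.0161). Without control replicate 3 Meiob fell 1.95-fold (log2 -0.97, SE 0.10, edgeR adjusted p = 1.24e-08).

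Spata22 repeated that order, with 16.15, 16.7 and 6.03 CPM in control replicates 1 to 3 and 6.45, 5.39 and 6.16 CPM in dsfb replicates 1 to 3. Control replicate 3 again lay within the dsfb range. The fall was 2.16-fold (log2 -1.11, SE 0.37, edgeR adjusted p = 0.0307), or 2.79-fold without control replicate 3 (log2 -1.48, SE 0.16, edgeR adjusted p = 2.64e-08). The call was lost when control replicate 1 or 2 or any 1 dsfb library was left out (edgeR adjusted p = 0.0751 to 0.0997) and with upper-quartile, library-size or prophase-marker scaling (edgeR adjusted p = 0.0768, 0.119 and 0.417). It was also lost with limma-voom (adjusted p = 0.0749). Scaled on the meiotic prophase markers, Meiob had a log2 fold change of 0.13. Without control replicate 3, 5 of the 6 genes fell, where 71.6% of all tested genes were called, 38.4% as lower and 33.2% as higher.

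**Figure D2:**
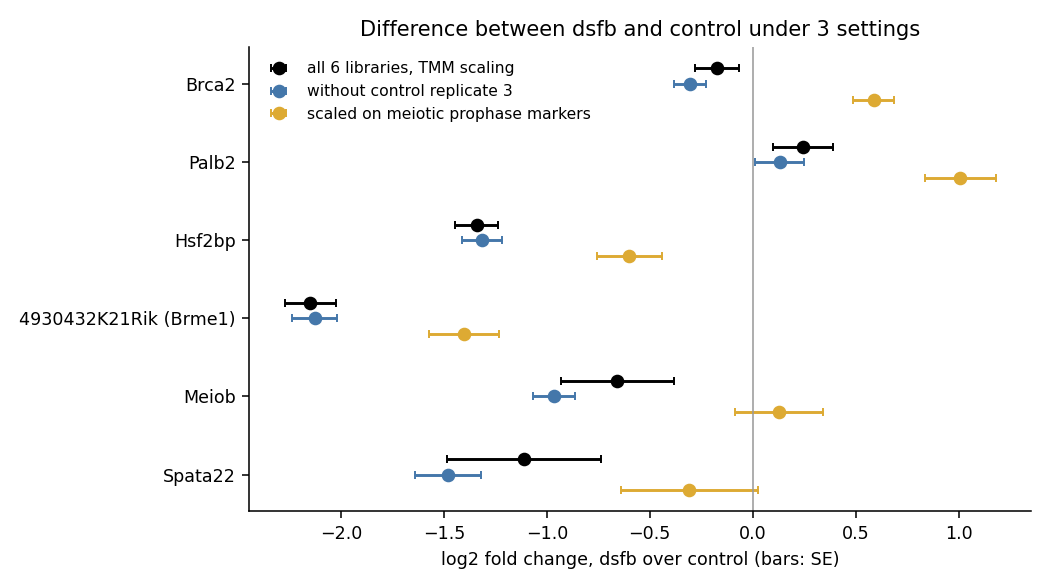
Log2 fold change of dsfb over control (horizontal axis, bars are SE) for each gene with all 6 libraries and TMM scaling, without control replicate 3, and with libraries scaled on meiotic prophase markers. Values for 4930432K21Rik stay at or under -1.40 in these 3 settings, while those of Brca2 and Meiob change sign.

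Within the control group, the genes differed in how they followed control replicate 3. Its log2 level relative to the mean of control replicates 1 and 2 was -1.45 for Spata22 and -1.08 for Meiob, where replicates 1 and 2 themselves differed by 0.05 and 0.07. For Brca2 and Palb2 it was -0.33 and -0.27. Hsf2bp and 4930432K21Rik lay at 0.17 and 0.16 in the same library, less than the difference between replicates 1 and 2 (0.19 and 0.36). As medians over marker lists, control replicate 3 lay at 2.79 for spermatids, 0.40 for late pachytene spermatocytes, -0.42 for meiotic prophase and -3.75 for erythroid cells, which were also low in dsfb replicate 3. These are values of 1 animal, without a test.

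**Figure D3:**
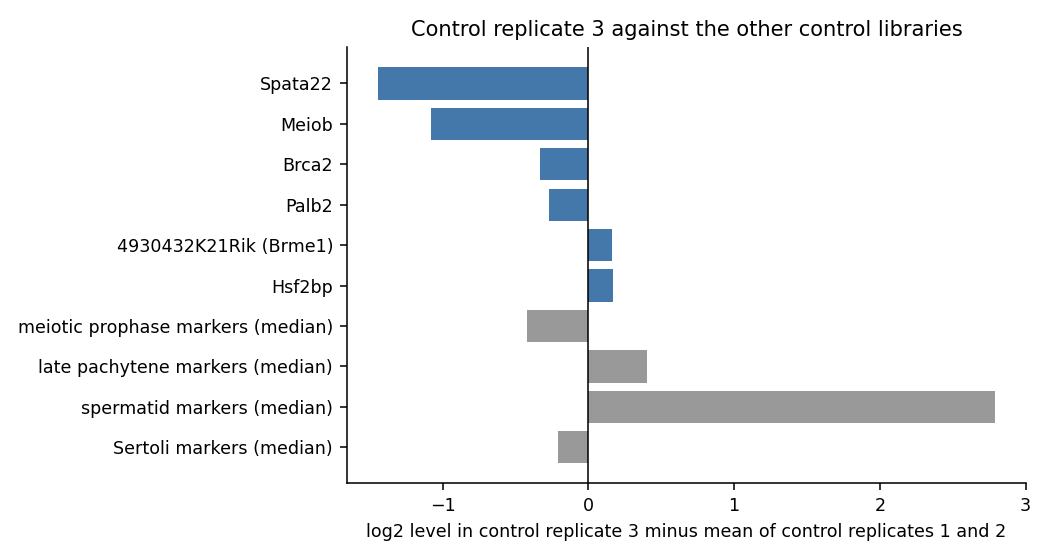
Log2 level in control replicate 3 minus the mean of control replicates 1 and 2 (horizontal axis) for the 6 genes (blue) and as the median of 4 marker lists (grey). Spata22 and Meiob lie at -1.45 and -1.08, the localizers just above 0 and the spermatid markers at 2.79.

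Ratios of counts between partners do not depend on how libraries are scaled. The count of Hsf2bp over that of 4930432K21Rik was 0.927, 0.823 and 0.878 in control replicates 1 to 3 and 1.42, 1.701 and 1.48 in dsfb replicates 1 to 3. In these libraries the fall of BRME1 transcripts was thus the larger, the ratio being 1.75-fold higher in dsfb without overlap between the groups (log2 0.80). By exact permutation of the libraries (two-sided) p was 0.1, which is the least that this design of 3 and 3 can reach, or 0.15 adjusted over the 3 ratios tested.

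Brca2 over Palb2 gave 6.75, 7.85 and 6.99 in control replicates 1 to 3 and 5.92, 5.45 and 4.81 in dsfb replicates 1 to 3. Each dsfb value was below each control value, a difference of -0.42 on the log2 scale (exact permutation p = 0.1, adjusted 0.15). Neither gene passed the test alone, and the groups did not overlap in their ratio. How often the ratios of other gene pairs do not overlap was not counted for any ratio given here. Of single tested genes 74.7% had groups that did not overlap, in either direction.

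Meiob over Spata22 was 5.21, 5.27 and 6.78 in control replicates 1 to 3 and 7.06, 9.39 and 6.34 in dsfb replicates 1 to 3. Here the groups overlapped (log2 difference 0.39, exact permutation p = 0.2, adjusted 0.2). Counts of Spata22 were low, from 94 to 405 reads, and the 95% counting interval (exact binomial) of dsfb replicate 2 ran from 7.59 to 11.75 and that of control replicate 3 from 5.63 to 8.21. Intervals cover counting error only.

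Hsf2bp was also lower relative to Brca2 in every dsfb library. As a description chosen after the values were seen, Hsf2bp over Brca2 was 0.434, 0.496 and 0.655 in control replicates 1 to 3 and 0.221, 0.2395 and 0.233 in dsfb replicates 1 to 3. The mean log2 ratio was -0.94 in control and -2.11 in dsfb. For Meiob over Brca2 the groups overlapped, with 0.508, 0.534 and 0.310 in control and 0.3255, 0.361 and 0.300 in dsfb replicates 1 to 3.

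**Figure D4:**
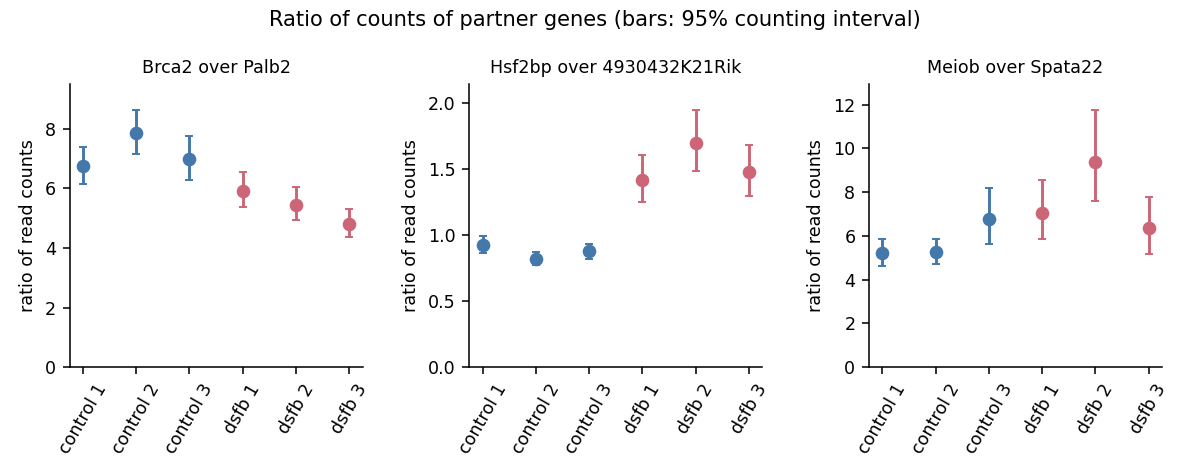
Ratio of read counts between partner genes (vertical axis, from 0) in each library, with 95% exact binomial counting intervals. Hsf2bp over 4930432K21Rik lies between 0.823 and 0.927 in control and between 1.42 and 1.701 in dsfb, while Meiob over Spata22 overlaps between the groups.

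Per kilobase of annotated exon, the order of levels changed between the groups. In control, Meiob (39.5 ± 14.6 CPM per kilobase, SD, n = 3) and 4930432K21Rik (38.1 ± 5.12) led and overlapped. Next came Hsf2bp (22.3 ± 2.03), which overlapped with Meiob because of control replicate 3 (22.7 for Meiob and 24.0 for Hsf2bp), and then Brca2 (11.3 ± 1.43), which overlapped with Spata22 (10.2 ± 4.72), and Palb2 was the lowest (2.92 ± 0.395). In dsfb, Meiob stood alone at the top with 25.02 ± 3.23 CPM per kilobase. Brca2 followed with 10.0 ± 0.424, just above Hsf2bp (8.80 ± 0.489) and 4930432K21Rik (8.60 ± 0.444), which overlapped with each other. Spata22 (4.71 ± 0.428) and Palb2 (3.47 ± 0.232) were the lowest. If the Spata22 reads came only from its unshared bases, its level would be 52.1 ± 24.2 CPM per kilobase in control and 24.1 ± 2.19 in dsfb, so its place in the order is uncertain.

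Across the paired starts shown above, the 2 sides did not always move alike. Cc2d1a, which is transcribed away from 4930432K21Rik, was at 45.2, 50.7 and 65.7 CPM in control replicates 1 to 3 and at 49.4, 50.6 and 58.4 CPM in dsfb replicates 1 to 3. Its log2 difference of -0.03 (SE 0.15, edgeR adjusted p = 0.879) lies beside the -2.15 of 4930432K21Rik. Cc2d1a passed as higher with library size only (log2 0.37, edgeR adjusted p = 0.0428) and prophase-marker scaling (log2 0.71, edgeR adjusted p = 0.0231). Aspa, the neighbour of Spata22 that encodes aspartoacylase, was at 14.8, 15.1 and 13.3 CPM in control and at 6.25, 5.16 and 4.54 CPM in dsfb replicates 1 to 3, a fall (log2 -1.44, SE 0.19, edgeR adjusted p = 0.000448). Unlike Spata22, Aspa was not low in control replicate 3. Rrp1b, which overlaps Hsf2bp, had a log2 difference of 0.25 (SE 0.11, edgeR adjusted p = 0.0696), and passed as higher with autosomal TMM, upper-quartile, library-size and prophase-marker scaling (edgeR adjusted p = 0.000228 to 0.0407). Dctn5, a dynactin subunit gene beside Palb2, had -0.31 (SE 0.10, edgeR adjusted p = 0.0212). That call was lost without control replicate 2 or any 1 dsfb library (edgeR adjusted p = 0.058 to 0.10) and with upper-quartile scaling (edgeR adjusted p = 0.77). The sign turned with library size only (0.08) and with prophase-marker scaling (0.44), where Dctn5 passed as higher (edgeR adjusted p = 0.00687). The differences between the 2 sides were not tested.

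The other genes of the pathway, listed by role, moved in both directions. Of 38 listed genes 37 were tested, of which 16 fell and 7 rose. Calls thus made up 62.2% of these genes, with a median log2 fold change of -0.28, beside 66.9% and 0.02 over all genes. The split depended on the scaling, with 12 rises and 13 falls under upper-quartile, 13 and 11 under library-size and 19 and 6 under prophase-marker scaling. Without dsfb replicate 1 there were 4 rises and 16 falls.

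Dmc1, the gene of the meiotic recombinase, rose. It was at 63.3, 65.0 and 36.3 CPM in control replicates 1 to 3 and at 128, 133 and 128 CPM in dsfb replicates 1 to 3. All dsfb libraries were above all controls, a 2.36-fold rise (log2 1.24, SE 0.21, edgeR adjusted p = 0.00128). Without control replicate 3, the lowest, the rise was smaller (log2 0.99, SE 0.08, edgeR adjusted p = 4.42e-10).

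In RPA, the complex with which MEIOB and SPATA22 associate, the subunits parted. Rpa1, the large subunit, was at 258, 299 and 326 CPM in control replicates 1 to 3 and at 72.7, 69.2 and 66.2 CPM in dsfb replicates 1 to 3. That is a 4.25-fold fall without overlap (log2 -2.09, SE 0.11, edgeR adjusted p = 3.16e-06). Rpa2 rose from 66.1 ± 6.84 to 89.4 ± 1.44 CPM (log2 0.44, SE 0.10, edgeR adjusted p = 0.00533), and Rpa3 had a log2 difference of 0.37 that did not pass (SE 0.22, edgeR adjusted p = 0.173), but passed as higher with upper-quartile, library-size and prophase-marker scaling (edgeR adjusted p = 0.00135 to 0.0324). The directions and calls of Rpa1 and Rpa2 held under every scaling tried.

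Of 17 recombinase cofactors 8 fell and 3 rose, or 1 rose when any 1 dsfb library was left out. Psmc3ip, whose product HOP2 works with DMC1, fell 4.36-fold, Zswim7, a partner of SWSAP1, 3.24-fold and the anti-recombinase gene Fignl1 2.16-fold. Mnd1, whose product forms a heterodimer with HOP2, rose from 8.24 ± 1.53 to 16.4 ± 0.749 CPM, opposite to Psmc3ip, and is named after its values were seen. The median of this list was -0.44, and 0.32, with 7 rises and 3 falls, when libraries were scaled on meiotic prophase markers.

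Among 6 BRCA1 and BRCA2 or PALB2 partners 2 fell and 1 rose. Morf4l1, which encodes the PALB2-binding chromatin protein MRG15, fell 4.22-fold from 1439 ± 99.5 to 341 ± 10.3 CPM. Brca1 rose 1.42-fold (log2 0.50, SE 0.10, edgeR adjusted p = 0.00269) while Bard1, which encodes its binding partner, fell 1.59-fold (log2 -0.67, SE 0.12, edgeR adjusted p = 0.00183). The Bard1 call was lost with library size only (edgeR adjusted p = 0.0855) and with prophase-marker scaling, where its log2 difference was 0.09. Bccip, which encodes a BRCA2-binding protein, had a log2 difference of 0.39 (SE 0.15, edgeR adjusted p = 0.0539) and passed as higher in 9 of the 17 other settings, limma-voom (adjusted p = 0.0493) and upper-quartile scaling (edgeR adjusted p = 0.0054) among them.

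Of 7 resection genes 3 fell and 1 rose. The helicase gene Blm fell 1.74-fold, Nbn 1.59-fold and Mre11a 1.31-fold, the last 2 being subunits of the nuclease complex at breaks, with log2 differences of 0.10 and 0.36 under prophase-marker scaling, where Mre11a passed as higher (edgeR adjusted p = 0.0498). The Blm call was lost there as well (log2 -0.03, edgeR adjusted p = 0.818). With upper-quartile and library-size scaling the calls of Nbn (edgeR adjusted p = 0.0531 and 0.158) and Mre11a (0.299 and 0.922) were lost. The nuclease gene Exo1 rose 1.28-fold, a call lost without dsfb replicate 1 (edgeR adjusted p = 0.0635) and without the count filter (edgeR adjusted p = 0.0945). Of 3 tested genes of the MCM8-MCM9 group, Mcmdc2, which supports strand invasion in meiosis, fell 2.65-fold and Mcm9 1.52-fold (log2 -0.61, or 0.15 under prophase-marker scaling), and the Mcm9 call was also lost with library size only (edgeR adjusted p = 0.17). Mcm8 had a log2 difference of 0.17 (SE 0.22), was at -0.09 without control replicate 3 and passed as higher with prophase-marker scaling (edgeR adjusted p = 0.00139).

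**Figure D5:**
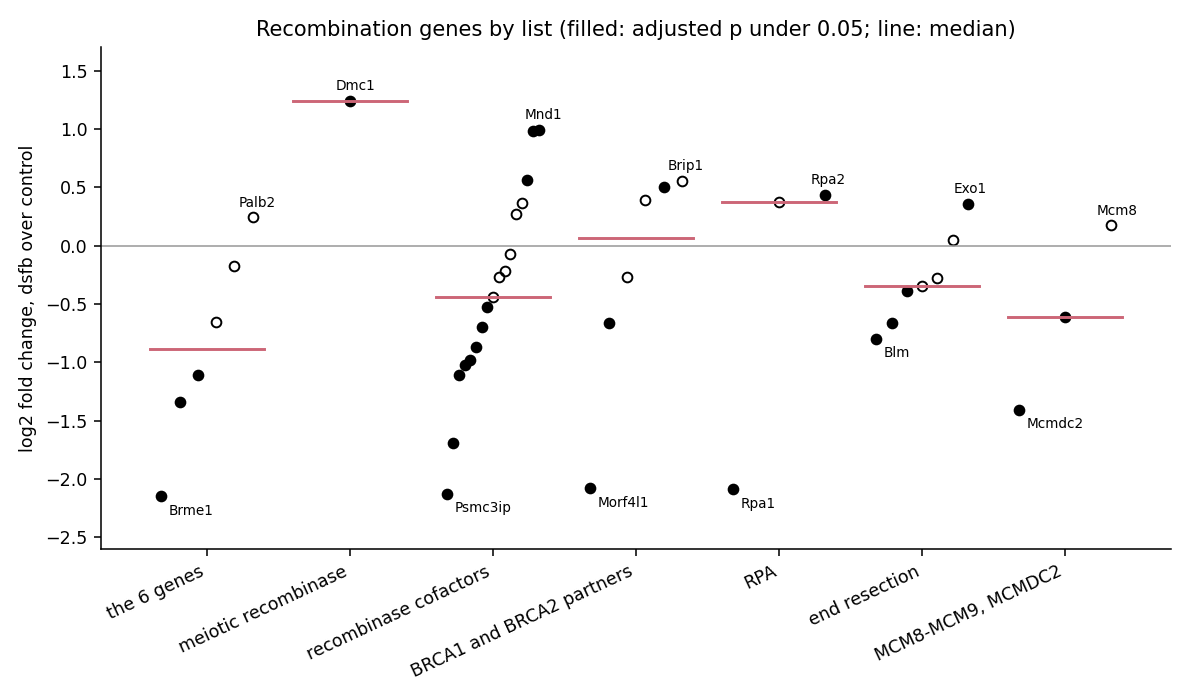
Log2 fold change of dsfb over control (vertical axis) for each tested gene of the 6 described here and of 6 pathway lists, filled where the edgeR adjusted p is under 0.05, with a line at each list's median. Labels name the lowest and highest gene of each list, from -2.15 for Brme1 to 1.24 for Dmc1.

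To place the 6 genes among the whole table, likeness was measured as the root mean square difference of mean-centred log2 levels over the 6 libraries, searched in 14240 genes. Among the members themselves, Brca2 and Palb2 (0.23) and Meiob and Spata22 (0.26) were closest, and Hsf2bp and 4930432K21Rik differed by 0.41. Meiob was most like Sycp1 (0.06), the gene of the transverse filament of the synaptonemal complex, which was at 905, 959 and 415 CPM in control replicates 1 to 3 and 491, 527 and 452 CPM in dsfb replicates 1 to 3. Its next neighbours were Mrps33 (0.09) and Ranbp1 (0.10). Spata22 was most like Tex12 (0.17), another synaptonemal complex gene, then Cenpq (0.19) and Hormad1 (0.22). All 4 of the genes Sycp1, Tex12, Cenpq and Hormad1 had their lowest control level in replicate 3.

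The localizers had other neighbours. 4930432K21Rik was closest to Fancg (0.06), a Fanconi anaemia gene, then to Rpa1 (0.06) and Katnal1 (0.06), and Hsf2bp to Mfsd11, Ash2l and Pcmt1 (0.04 each). In these 6 genes control replicate 3 was not low. Brca2 was closest to Gpbp1l1, Ercc6l2 and Rpf1 (0.02 each), and Palb2 to Ints2 (0.04), Ska3 and Zfand2a (0.05 each). A profile over 6 libraries in 2 groups mostly reflects the size of the group difference and the place of control replicate 3.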

How the data were processed

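Polyadenylated RNA of 6 testes libraries, 3 per group from different mice, was deposited as raw read counts per gene (unit counts). Per the submitters' processing notes the authors used STAR 2.6.0 and the build mm10. How reads were counted, with which annotation and whether by strand, is not given in the sources used. Genes were named from GENCODE M21, which held 55227 of 55487 identifiers, the other 260 holding 0.0238% of counts. One listed symbol of 111 did not match, and some results on recombination genes are not reported here.

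The counts were fitted with edgeR 4.0.16 in R 4.3.3 (filterByExpr, TMM factors 0.844 to 1.16, glmQLFit and glmQLFTest, group as the only term), with Benjamini-Hochberg adjustment over all 19826 tested genes and a threshold of 0.05. The SE was derived from F (the size of the log2 fold change divided by its square root). Ratios were tested by exact permutation of libraries. The fit was tested on simulated data.

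The 6 genes, the lists and the tests were chosen with earlier results of these data known. Named genes are the members, up to 4 genes of smallest p in each pathway list, and the 3 nearest profiles of each member (log2 of CPM plus 0.5, genes averaging 1 CPM or more and without a clone or predicted name). Alternatives were RLE, upper-quartile, library-size, autosomal TMM and prophase-marker scaling, other filters, DESeq2 1.42.0, limma-voom (limma 3.58.1), a replicate block and leaving out each library. Thinning to 15335130 reads was added after the data were seen. Neighbours with paired starts are also named, from a search that was not among the planned tests. Libraries of a group differed by more than counting noise (chi-square per degree of freedom 4.09 to 74.1, the highest with control replicate 3).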

Additional observations from a re-analysis of the deposited data

How the results depend on the processing

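Each gene was refitted under 17 other settings. Hsf2bp and 4930432K21Rik kept their direction and call in all 17, and Palb2 kept its direction in all 17 and was called in 3. Of the 6 members 2 to 5 were called when 1 library was left out, the 5 being without control replicate 3. The log2 ratios ranged from 0.23 to 0.51 for Meiob over Spata22, 0.73 to 0.86 for Hsf2bp over 4930432K21Rik and -0.49 to -0.34 for Brca2 over Palb2 with 1 library left out. Genes called in all numbered 11829 to 14217 when 1 library was left out and 12747 after thinning.

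Directions turned under these settings. A change of scaling shifts the log2 fold changes of all genes by nearly the same amount. Values relative to the median of all genes therefore stay close by construction. For libraries left out, the cause of a turn was not tested. Brca2 had 0.10 with upper-quartile scaling, 0.22 with library size only and 0.59 with prophase-marker scaling. Relative to the median of all genes, Brca2 was at -0.190 in the main setting and at -0.192, -0.195 and -0.179 under these scalings. Meiob was at -0.67 relative to that median in the main setting and at -0.64 under prophase-marker scaling. Prophase-marker scaling, whose list includes germ cell genes that fell, also gave 0.13 for Meiob, 0.095 for Bard1, 0.36 for Mre11a, 0.10 for Nbn, 0.15 for Mcm9, 0.44 for Dctn5 and 0.71 for Cc2d1a. Library size only gave 0.0101 for Mre11a, 0.083 for Dctn5 and 0.37 for Cc2d1a. Cc2d1a, near 0 with all libraries, was at 0.25 with upper-quartile scaling and 0.0185 with autosomal TMM, and between -0.186 and 0.109 when 1 library was left out (positive without control replicate 3, dsfb replicate 1 or dsfb replicate 2). Mcm8 ranged from -0.088 to 0.29 when 1 library was left out, with its lowest value without control replicate 3.

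With a replicate block 4 members were called, Meiob among them (log2 -0.59, edgeR adjusted p = 0.0161), and 13431 genes in all. Same-numbered libraries had correlations of deviations of 0.067, 0.0549 and 0.11 for numbers 1, 2 and 3, and each library correlated best with its own number, a hint from the data and not the design. Erythroid markers were low in replicate 3 of both groups. For the ratios, the mean difference over same-numbered libraries equals the difference of group means by arithmetic (0.39, 0.80 and -0.42). The block is therefore no check of the ratios. Depth limits mainly Spata22, with 94 to 405 reads.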
